A study of Mus musculus with 3 samples.

Results

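Endothelial cells receive growth factors and hold on to each other through a small set of surface proteins, and 8 of the genes for them were followed through 3 single-cell libraries of mouse liver. They were the vascular endothelial growth factor (VEGF) receptors Kdr, Flt1 and Flt4, the co-receptor Nrp1, the angiopoietin receptor Tek, the transforming growth factor β (TGFβ) and bone morphogenetic protein (BMP) co-receptor Eng, and the junction genes Pecam1 and Cdh5. They were chosen by name, with earlier results of these data known, and are 8 of the 19091 genes in the count matrices. All 8 had counts in every library. Adult C57BL/6 mice were used in all groups. The control library came from mice that had sham surgery and were killed after 1 day, with tissue taken from a non-injured area, and the other libraries came from mice killed 1 day or 7 days after irreversible electroporation (IRE), in which pulses passed between electrodes on a liver lobe damage the tissue. In each group a punch of the liver was digested with enzymes, strained and freed of red blood cells, 3 livers were pooled, and the cells were run on Drop-seq, which gives each cell a barcode and each captured transcript a unique molecular identifier (UMI) at its 3′ end. With 1 library a condition there is no replicate of a condition and no test between conditions. The intervals given are 95% exact Poisson intervals for levels, exact binomial intervals for shares and conditional binomial intervals for ratios, and they cover counting error only, so a difference outside them is a difference between these libraries.

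VEGF-A signals to endothelial cells mainly through the product of Kdr, while the product of Flt1 binds VEGF-A more tightly and signals less, and that of Flt4 binds VEGF-C and VEGF-D. NRP1 presents VEGF-A to its receptor and also binds class 3 semaphorins, TEK (Tie2) is held active by angiopoietin 1 and can be countered by angiopoietin 2, and endoglin passes on signals of BMP9, BMP10 and TGFβ. In the liver the smallest vessels are sinusoids, lined by fenestrated endothelial cells with loose junctions, whereas the larger portal and central vessels have a closed lining held by VE-cadherin (Cdh5) and PECAM-1 (Pecam1).

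The members were considered together because they share a cell type, and a motif of the ETS family of transcription factors, to which the endothelial factors Erg and Fli1 belong, was looked up in their promoters. RefSeq windows of GRCm38.p6 were matched by symbol for 6 of the 8 genes (all but Pecam1 and Cdh5). In the 250 bases before the start, on both strands, CCGGAA was found for 1 of these 6 genes and AGGAAG for 3, against 12% and 29.5% of 32851 windows of the same length. Both motifs hold GGAA, but after different letters, so that the same GGAA cannot be counted for both. The 4 stretches that hold a match are shown in the orientation of the gene with the match in capitals, and they are a description of letters, not of binding.
Kdr (chr5:75978591-75978620, minus strand): cgcccggcacagTTCCGGggtagtggggga
Flt1 (chr5:147726123-147726152, minus strand): cgcccctccgggAGGAAGaagagggtaggt
Nrp1 (chr8:128358970-128358999, plus strand): ggagggggcgggAGGAAGggagggaagggc
Eng (chr2:32646531-32646560, plus strand): aagcctgtggcaCTTCCTctactcgcctgg
The match lay 153 bases before the start for Kdr, 129 for Flt1, 91 for Nrp1 and 52 for Eng. In Kdr and Eng it read on the other strand.

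Cells were barcodes in which 200 genes or more were detected, which left 5624 to 10386 cells a library with a median of 456.5 to 595 UMIs a cell. Mitochondrial genes took 20.5% of the kept UMIs in control, 21.7% at 1 day post-injury (p.i.) and 4.10% at 7 days p.i., and the barcodes below the limit held 20.1% to 33.2% of all UMIs. Any 2 libraries shared 44 to 149 kept barcodes, and of the 48 endothelial cells at 7 days p.i. 1 had a barcode of the 1-day library and 0 had one of the control library. Cells were assigned to a class by lists of 12 markers that contain none of the 8 genes, a cell being endothelial when it had at least 2 of the endothelial markers (such as Stab2, Clec4g, Ptprb and Egfl7) and more of them than of any other class. The samples are labelled as liver cells, but only 16, 268 and 0 cells of the control, 1-day and 7-day libraries passed as hepatocytes. The endothelial values are therefore read mainly against immune and stromal cells.

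Endothelial cells made up 14.9% of the kept cells in control (1545 cells, 95% interval 14.2% to 15.6%), 39.9% at 1 day p.i. (3695 cells, 38.9% to 40.9%) and 0.853% at 7 days p.i. (48 cells, 0.630% to 1.13%). All 12 endothelial markers had UMIs in this class in each library, at 12930 counts per 1000000 UMIs of the same cells (CPM) in control, 13193 at 1 day and 15125 at 7 days. Neutrophil markers were in the same cells at 1772, 479 and 13076 CPM, and only 376, 612 and 1 of these cells had no macrophage, monocyte or neutrophil marker. The 7-day endothelial values below rest on 48 cells, nearly all of which also held RNA of a myeloid marker, and the part of this in the results was not tested.

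In the libraries as a whole, the 8 genes moved in the same direction as the share of endothelial cells, though to a smaller extent. Their summed level was 1033 CPM in control, 2301 CPM at 1 day and 264 CPM at 7 days, from 8280, 14057 and 807 UMIs, which is 2.23 times control at 1 day (2.17 to 2.29) and 0.255 times control at 7 days (0.237 to 0.275). In such whole-library levels, fewer cells of a type and less RNA per cell cannot be told apart. At 1 day, 6 of the 8 were at least 2-fold higher than in control, against 12.2% of the 11357 genes with at least 50 UMIs in both libraries together, and 0 were at least 2-fold lower, against 5.86%. At 7 days, 8 of 8 were at least 2-fold lower, against 21.8% of 10227 genes, and 0 at least 2-fold higher, against 8.79%. The median ratio of the 8 genes was 2.27 at 1 day and 0.229 at 7 days, beside 1.03 and 0.862 over all genes in the comparison. The 12 endothelial markers moved further than the 8 genes in both directions, to 3.15 times control at 1 day and 0.145 times control at 7 days. Both comparisons share the control library.

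Among the VEGF receptors, Kdr had 1680 UMIs in control, 3435 at 1 day and 120 at 7 days, or 209.6, 562 and 39.2 CPM of the whole library. Flt1 had 837, 1429 and 60 UMIs, or 104, 234 and 19.6 CPM. Flt4, the receptor best known from lymphatic vessels, had 398, 700 and 24 UMIs, or 49.7, 115 and 7.85 CPM. All 3 receptors were therefore highest at 1 day and lowest at 7 days, with no overlap of the intervals. How many of all genes had this order was not counted. The ratios of the 3 receptors to control were close to each other at 1 day (2.68 for Kdr, 2.24 for Flt1, 2.31 for Flt4) and at 7 days (0.187, 0.188 and 0.158).

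The co-receptor Nrp1 was the member with most UMIs, with 3129, 4259 and 339 UMIs or 390.5, 697 and 111 CPM. It was 1.79 times control at 1 day (1.70 to 1.87) and 0.284 times control at 7 days (0.253 to 0.318) and had the lowest 1-day ratio of the 8. Tek had 340, 821 and 29 UMIs, and Eng 559, 1333 and 50 UMIs. Both had the highest ratios at 1 day, 3.17 for Tek (2.79 to 3.61) and 3.13 for Eng (2.83 to 3.46), and ratios of 0.223 and 0.234 at 7 days. The junction genes differed from each other at 7 days: Pecam1, an adhesion molecule of endothelial cells that leukocytes and platelets carry too, had 746, 1090 and 127 UMIs and stayed at 0.446 times control at 7 days (0.367 to 0.539), while Cdh5 had 591, 990 and 58 UMIs and stood at 0.257 times control (0.193 to 0.337). At 1 day their ratios were 1.92 (1.74 to 2.11) and 2.20 (1.98 to 2.44).

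**Figure D1:**
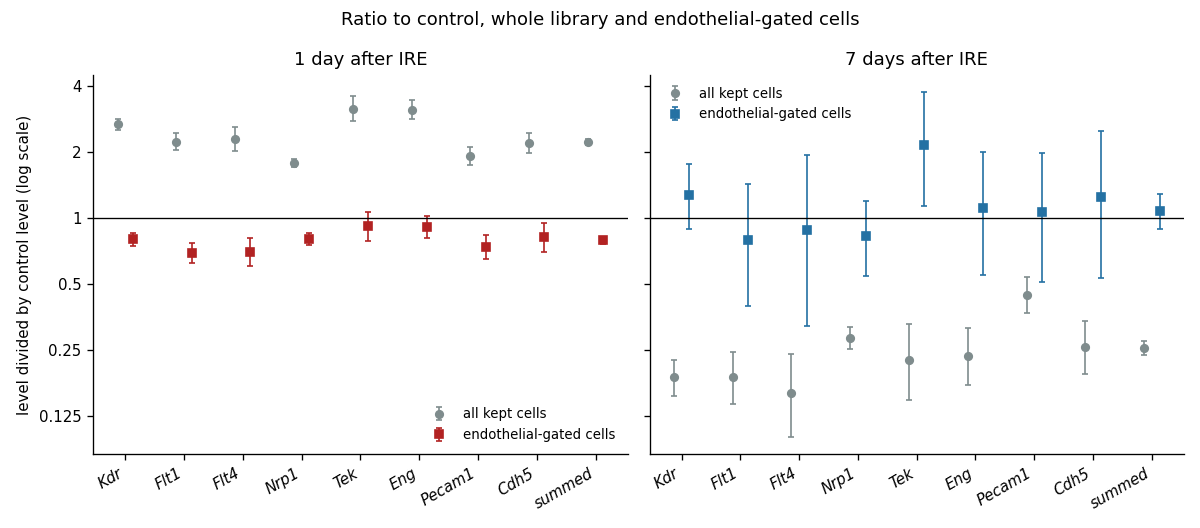
Level of each gene, and of the 8 together, divided by its control level, at 1 day p.i. (left) and 7 days p.i. (right), on a log axis. Circles are whole libraries and squares endothelial cells, with 95% counting intervals from 1 library a condition. Whole-library ratios lie between 1.79 and 3.17 at 1 day and between 0.158 and 0.446 at 7 days, while those in endothelial cells lie between 0.693 and 0.916 at 1 day.

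Where these UMIs lay separated the members. In control, 71.7% to 76.9% of the UMIs of Kdr, Flt1, Flt4, Tek and Eng were in endothelial cells. For Nrp1 the share was 47.2%, for Pecam1 54.4% and for Cdh5 47.2%. The next class for Cdh5 was the macrophages, with 40.3% of its UMIs, against 7.0% for Eng and 8.1% for Kdr, and macrophages also held 23.6% of Nrp1 and 18.2% of Pecam1. At 7 days endothelial cells held 15.4% of the UMIs of the 8 genes, neutrophils 32.1% and monocytes 21.7%. These classes were 0.853%, 49.3% and 28.0% of the kept cells, so class size enters these shares. Pecam1 had its largest share in neutrophils (48.0% of 127 UMIs), which was near their share of cells. So had Eng (44.0% of 50 UMIs), Flt4 (41.7% of 24 UMIs) and Flt1 (36.7% of 60 UMIs), while Cdh5 had its largest share in macrophages (36.2% of 58 UMIs). Nrp1 had its largest share in monocytes (36.0% of 339 UMIs). Kdr and Tek were the members that had their largest share in endothelial cells at 7 days, 30.8% of 120 UMIs and 44.8% of 29 UMIs.

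Within endothelial cells, the same genes did not follow the whole library. Their summed level was 5027 CPM in control, 3985 at 1 day and 5405 at 7 days, so that it was lower at 1 day, at 0.793 times control (0.765 to 0.821), and could not be told from control at 7 days, at 1.08 times (0.892 to 1.29). The 12 endothelial markers in the same cells were 1.02 times control at 1 day (0.999 to 1.04). Of the 8 genes, 0 were at least 2-fold higher at 1 day, against 8.63% of 7008 genes, and 0 at least 2-fold lower, against 2.05%. At 7 days 1 of 8, Tek, was at least 2-fold higher, against 18.6% of 3061 genes, and 0 at least 2-fold lower, against 18.6%. The 7-day endothelial cells hold 22942 UMIs in all, so that a gene can pass a 2-fold limit on a handful of counts. The part of this in these last percentages was not tested. The median ratio of the 8 genes was 0.800 at 1 day and 1.09 at 7 days, beside 1.00 and 1.14 over all genes in the comparison.

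Kdr stood at 1269.7 CPM in control endothelial cells (1267 UMIs), at 1015 at 1 day (2164 UMIs) and at 1613 at 7 days (37 UMIs). Flt1 stood at 601, 417 and 479 CPM and Flt4 at 297, 207 and 262. At 1 day all 3 VEGF receptors were lower per endothelial UMI than in control: the ratios were 0.799 for Kdr (0.745 to 0.857), 0.693 for Flt1 (0.624 to 0.770) and 0.699 for Flt4 (0.602 to 0.812). The intervals of Kdr and Flt1 held 1 among cells with at least 500 genes (0.948, 0.829 to 1.09, and 0.942, 0.777 to 1.14) and among cells with at most 20% mitochondrial UMIs (0.977, 0.881 to 1.09, and 0.863, 0.740 to 1.01). The intervals at 7 days all hold 1, with 37, 11 and 6 UMIs behind them.

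Nrp1 stood at 1480.1 CPM in control endothelial cells, 1186 at 1 day and 1220.5 at 7 days, a ratio of 0.801 at 1 day (0.751 to 0.855). Tek stood at 262, 239.6 and 567 CPM, from 261, 511 and 13 UMIs. Eng stood at 431, 392 and 479. For these receptors of angiopoietins and of BMP9, the 1-day intervals hold 1 (0.788 to 1.07 for Tek and 0.810 to 1.03 for Eng), and the 7-day ratio of Tek to control was 2.17 (1.14 to 3.77). Per UMI of the 12 endothelial markers it was 1.85 (0.973 to 3.22), an interval that holds 1.

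Pecam1 stood at 407, 299.6 and 436 CPM in endothelial cells and Cdh5 at 279.6, 228 and 349. Both junction genes were lower at 1 day than in control, at 0.736 times (0.649 to 0.836) and 0.817 times (0.703 to 0.950). With at most 20% mitochondrial UMIs a cell both intervals held 1 (0.862, 0.717 to 1.04, and 0.888, 0.705 to 1.12), and in endothelial cells with no myeloid marker Pecam1 stood at 1.01 times control (0.735 to 1.41) and Cdh5 at 0.953 times (0.648 to 1.41). At 7 days 10 and 8 UMIs were counted and the intervals hold 1. Since UMIs tag the 3′ end of a transcript, levels were not divided by gene length, and the order of the genes, with Nrp1 and Kdr first and Flt4, Cdh5 and Tek last in control, is an order of captured tags, in which Eng and Pecam1, and Flt4, Cdh5 and Tek, are not separated by their intervals.

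The share of endothelial cells with a UMI was also lower at 1 day than in control for Kdr, Nrp1 and Flt1. Kdr was detected in 784 of 1545 endothelial cells in control (50.7%), in 1434 of 3695 at 1 day (38.8%) and in 24 of 48 at 7 days (50.0%). T cells, which should lack Kdr, had a UMI of it in 1.50% of 399 cells in control and 10.1% of 138 cells at 1 day. Their median depths were 585 and 471.5 UMIs, beside 529 and 495 in the endothelial cells. After each cell was thinned to 300 UMIs, Kdr was seen in 31.9% of 1513 control and 24.9% of 3547 1-day endothelial cells, and in 0.754% and 7.58% of the T cells. Nrp1 had the same order (33.4% and 27.5% after thinning), as had Flt1 (17.6% and 11.3%). The thinning left out 32 control, 148 1-day and 10 7-day endothelial cells that were shallower.

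A UMI of any of the 8 genes was found in 89.0% of control endothelial cells, 80.2% at 1 day and 85.4% at 7 days. Most cells showed only a few of them: 2 members was the commonest number in control (418 cells, 27.1%) and 1 member at 1 day (1136 cells, 30.7%), and 1 control cell had all 8. At these depths the absence of a UMI in a cell does not show absence of the transcript.

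**Figure D2:**
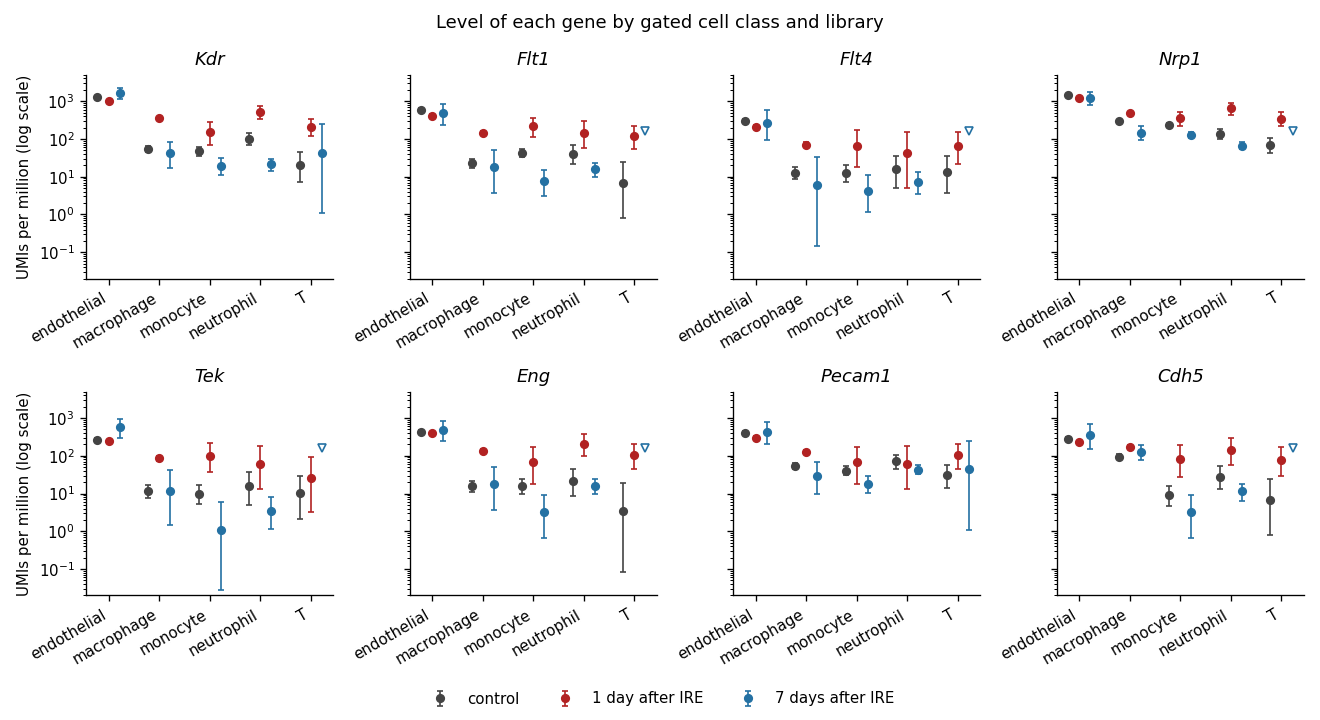
CPM of each gene in 5 gated cell classes, on a log axis, in control (grey), 1 day (red) and 7 days (blue) after IRE, with 95% exact Poisson intervals from 1 library a condition. Open triangles mark the upper limit where 0 UMIs were counted. Endothelial cells lead for every gene in each library, Cdh5 in macrophages comes nearest to them, and the 1-day values outside endothelial cells lie above control except for Pecam1 in neutrophils.

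The lining of sinusoids and that of larger vessels used these genes differently. Endothelial cells with at least 2 of the sinusoidal markers Stab2, Clec4g, Dnase1l3, Oit3, Gpr182 and Lyve1, and more of these than of the large-vessel list, numbered 1103 in control, 2351 at 1 day and 30 at 7 days. Large-vessel cells, by markers such as Vwf, Rspo3, Cd34 and Ltbp4, numbered 70, 118 and 3, so that only control and 1 day are compared. Kdr was lower in large-vessel cells, with 577 CPM against 1408 in sinusoidal cells of control and 400.4 against 1173 at 1 day, ratios of 0.410 (0.287 to 0.569) and 0.341 (0.239 to 0.472). Flt4 was lower too, at 109 against 339 and 86.6 against 237, from 7 and 8 large-vessel UMIs. Pecam1 went the other way, at 1107 against 373 in control and 595 against 314 at 1 day, ratios of 2.97 (2.25 to 3.87) and 1.89 (1.40 to 2.51). Flt1 was higher in large-vessel cells in both libraries, by ratios of 1.46 (1.08 to 1.93) and 1.45 (1.09 to 1.89).

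For each of the remaining members the interval holds 1 in at least 1 of the 2 libraries, and no difference between the libraries was tested. Tek in large-vessel cells stood at 327 CPM in control (21 UMIs) and 595 at 1 day (55 UMIs), beside 259 and 246 in sinusoidal cells, so that its ratio was 1.26 in control (0.765 to 1.99) and 2.42 at 1 day (1.79 to 3.22). Eng gave 0.833 (0.532 to 1.25) and 1.51 (1.13 to 1.98), and Nrp1 0.621 (0.475 to 0.799) and 1.03 (0.848 to 1.23). For Cdh5 both intervals hold 1, and the intervals of the 2 libraries overlap for Tek and Eng. Between the libraries, large-vessel cells at 1 day had 1.82 times the control level of Tek (1.08 to 3.16) and 0.538 times that of Pecam1 (0.371 to 0.775), while sinusoidal cells had 0.950 times (0.794 to 1.14) and 0.843 times (0.724 to 0.983). In sinusoidal cells alone the 8 genes together stood at 0.819 times control at 1 day (0.787 to 0.852).

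**Figure D3:**
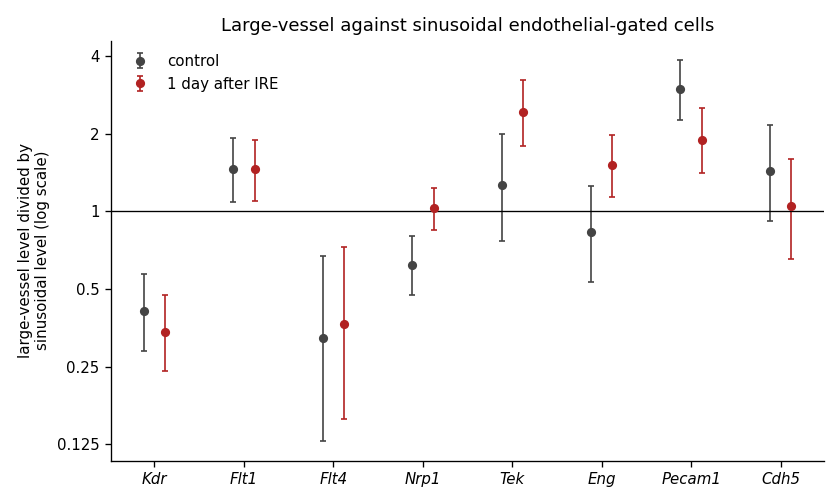
Level in large-vessel endothelial cells divided by that in sinusoidal endothelial cells for each gene, on a log axis, in control (grey) and 1 day after IRE (red), with 95% counting intervals. Kdr and Flt4 lie below 1 and Flt1 and Pecam1 above 1 in both libraries, and Tek, Eng and Nrp1 lie higher at 1 day than in control.

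Cdh5, the gene of VE-cadherin, was also found in macrophages, at a level nearer to the endothelial one than that of the other members. Macrophages had 238 UMIs of Cdh5 in control (95.4 CPM), 353 at 1 day (169) and 21 at 7 days (124). In control this was 2.93 times below the endothelial level (2.46 to 3.50), whereas Kdr, Flt1, Flt4, Tek and Eng were 22.5 to 27.6 times lower in macrophages than in endothelial cells. Counted per Kdr UMI in the same cells, Cdh5 stood at 0.220 in control endothelial cells (0.193 to 0.251) and 1.75 in control macrophages (1.41 to 2.18), while Flt1, Flt4, Tek and Eng had similar numbers in both classes (0.474 and 0.419 for Flt1, 0.339 and 0.287 for Eng). At 7 days Cdh5 per Kdr UMI was 0.216 in endothelial cells and 3 in macrophages (1.23 to 8.35). In control monocytes it was 0.190 (0.0935 to 0.357), near the endothelial number.

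Within the control macrophages, Cdh5 went with markers of Kupffer cells, the resident macrophages of the sinusoids. The division by 5 Kupffer cell markers (Clec4f, Vsig4, Cd5l, Timd4 and Marco) was chosen after these values had been seen. In control, the 635 macrophages with none of the 5 markers had 4 UMIs of Cdh5, or 8.46 CPM (2.31 to 21.7), the 451 with 1 marker had 6 UMIs, or 15.2 CPM (5.58 to 33.1), and the 1583 with 2 or more had 228 UMIs, or 140.0 CPM (122 to 159). Kdr was 40.2, 63.4 and 56.5 CPM in the same sets, with overlapping intervals. At 1 day the 3 sets had Cdh5 at 99.7 (40.1 to 205), 137 (99.8 to 184) and 178 CPM (159 to 199.7), in the same order but with overlapping intervals. In control Kdr did not follow the order that Cdh5 had. In the 956 cells with 2 or more Kupffer cell markers and none of the 12 endothelial markers, Cdh5 was still at 125 CPM (102 to 151), with Kdr at 28.1. At 7 days the 145 such cells had 124 CPM (67.9 to 208) from 14 UMIs, with 1 UMI of Kdr. At 1 day the 433 such cells had 228 CPM (171 to 298), but Kdr was also there at 211 CPM.

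**Figure D4:**
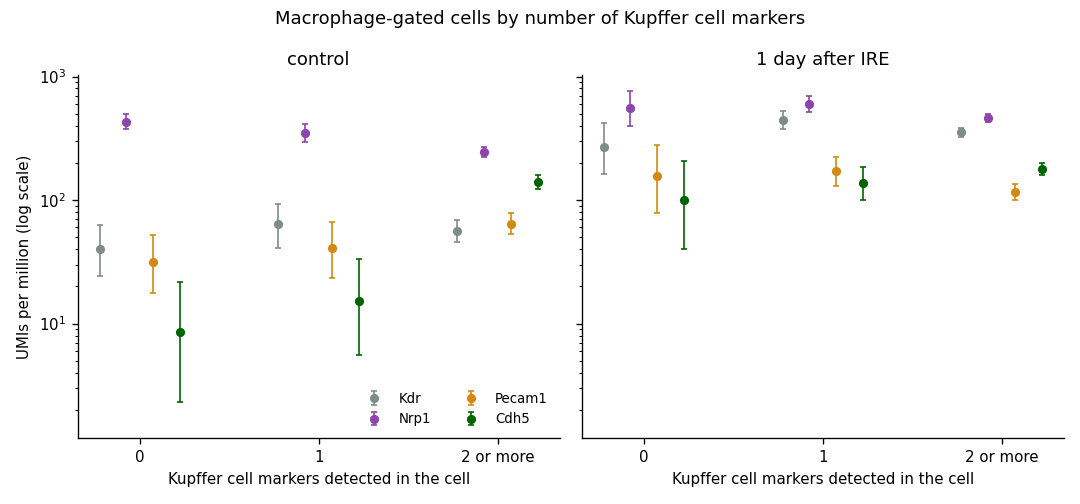
CPM of 4 genes in macrophages with 0, 1, or 2 or more of 5 Kupffer cell markers, on a log axis, in control (left) and 1 day after IRE (right), with 95% exact Poisson intervals. In control Cdh5 goes from 8.46 to 140.0 CPM across the sets, Nrp1 goes from 429.5 down to 245, and Kdr keeps within overlapping intervals.

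Nrp1 was spread over myeloid cells more widely than Cdh5, and in another pattern. In control it stood at 297 CPM in macrophages (740 UMIs), 240.3 in monocytes (323 UMIs), 137 in neutrophils (44 UMIs) and 199 in mesenchymal cells (88 UMIs), beside 70.4 in T cells (21 UMIs). In control its level went down over the Kupffer cell marker sets, from 429.5 CPM (372 to 493) through 350.0 (294 to 414) to 245 (222 to 270.2). At 1 day the sets had 555 (395 to 759), 599 (518 to 690.4) and 463 CPM (431 to 497), which is not that order. In monocytes with no endothelial marker it was 226 CPM in control (197 to 257) and 131 at 7 days (108 to 156), with Kdr at 40 and 20.1 in the same cells. Per Kdr UMI, Nrp1 stood at 1.17 in control endothelial cells, 5.44 in macrophages (4.53 to 6.58) and 5.13 in monocytes (3.90 to 6.83).

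Pecam1 differed from both. It stood at 54.5 CPM in control macrophages, 40.2 in monocytes, 71.6 in neutrophils and 134 in B cells (13 UMIs), beside 30.2 in T cells (9 UMIs). At 7 days its largest count was the 61 UMIs of neutrophils, or 43.2 CPM, and there it stood at 2.03 per Kdr UMI (1.29 to 3.26), against 0.270 in the 7-day endothelial cells (0.120 to 0.554) and 0.320 in those of control. At 7 days 2772 of the 5624 kept cells were neutrophils.

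**Figure D5:**
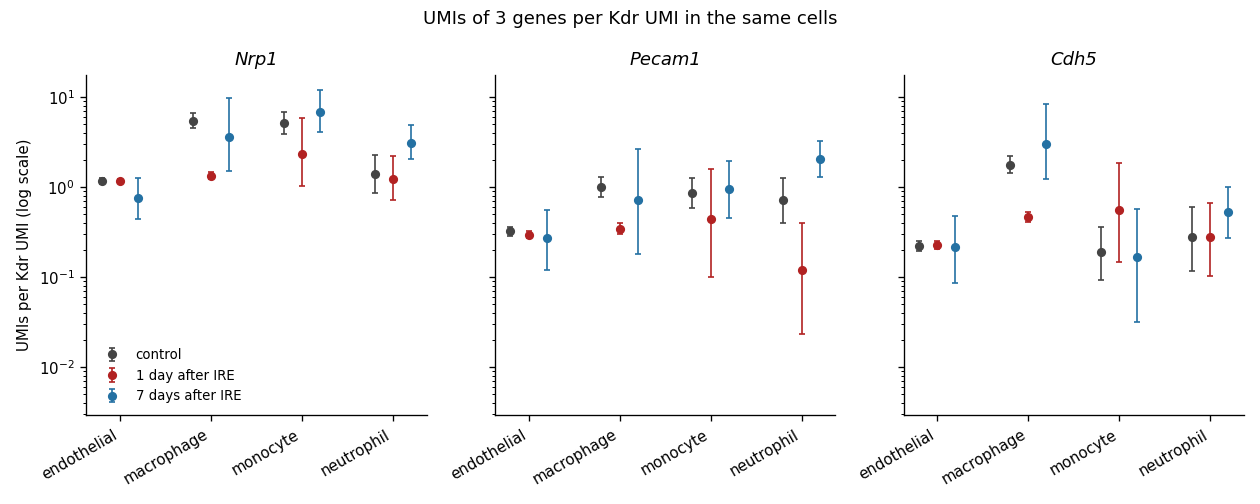
UMIs of Nrp1, Pecam1 and Cdh5 per Kdr UMI in endothelial cells, macrophages, monocytes and neutrophils, on a log axis, in control (grey), 1 day (red) and 7 days (blue) after IRE, with 95% counting intervals. Endothelial cells keep 1.17 Nrp1 and about 0.220 Cdh5 in control and at 1 day, while Cdh5 in macrophages reaches 1.75 in control and 3 at 7 days, and is at 0.463 at 1 day.

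RNA of the 8 genes was also counted outside endothelial cells. T cells went from 48 UMIs (161 CPM) in control to 80 UMIs (1057 CPM) at 1 day, 6.56 times (4.53 to 9.59). Of these UMIs, 21 and 26 were of Nrp1, and 9 and 8 of Pecam1, which leukocytes carry too. The 12 endothelial markers in the same T cells went from 295 to 1797 CPM, 6.09 times (4.62 to 8.05), with 10 and 11 of the 12 markers seen, so that the 8 genes per endothelial marker UMI were 1.08 times control (0.745 to 1.58). Barcodes under 200 genes held 759 CPM of the 8 genes in control, 2213 at 1 day and 164 at 7 days. In macrophages at 1 day, Kdr was 6.71 times control (5.59 to 8.12), Flt1 6.41 times and Eng 8.72 times, and the 12 endothelial markers 4.98 times (4.72 to 5.26). Lower ratios were found for 3 members: Nrp1 was 1.64 times control (1.49 to 1.81), Cdh5 1.78 times (1.50 to 2.10) and Pecam1 2.32 times (1.88 to 2.87). Per Kdr UMI, the macrophages of the 1-day library had Flt1 at 0.400, Flt4 at 0.194, Tek at 0.232 and Eng at 0.373, beside 0.411, 0.204, 0.236 and 0.387 in the endothelial cells. The part of RNA from endothelial cells in the 1-day values of other classes was not tested.

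The ligands of these receptors were counted in all kept cells, by lists chosen with earlier results known. Vegfa, the ligand of Kdr and Flt1, did not follow its receptors, with 51 UMIs in control (6.36 CPM), 164 at 1 day (26.9) and 340 at 7 days (111). At 7 days neutrophils had 175 of its UMIs (124 CPM) and monocytes 88 (94.2 CPM), while at 1 day hepatocytes and endothelial cells had 42 each and in control no class had more than 9. Vegfb had 87, 80 and 7 UMIs, most often in macrophages in control (36 UMIs) and in endothelial cells at 1 day (33 UMIs), and Vegfc, the ligand of Flt4, had 43, 16 and 1, most often in mesenchymal cells in control (17 UMIs) and in endothelial cells at 1 day (11 UMIs). Of the angiopoietin list, Angpt1, which activates Tek, had 34, 98 and 4 UMIs, 30 of those at 1 day in macrophages, Angpt2 49, 23 and 17, of which endothelial cells had 35, 15 and 2, and the angiopoietin-like Angptl4 216, 194 and 16. Of the endoglin ligands, Tgfb1 had 334, 204 and 182 UMIs, led by macrophages in control (123) and at 1 day (88) and by monocytes at 7 days (72), while Tgfb2 (69, 41 and 2) and Tgfb3 (105, 9 and 7) were led by mesenchymal cells in control (34 and 73). Of the class 3 semaphorins, Sema3f had 88, 71 and 11 UMIs, of which endothelial cells had 61, 40 and 0, Sema3c 48, 29 and 10, and Sema3d 30, 39 and 0.

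Inside endothelial cells, Angpt2, the context-dependent antagonist of Tek, had 35 UMIs in control (35.1 CPM) and 15 at 1 day (7.03 CPM), a ratio of 0.201 (0.102 to 0.377), and 2 UMIs at 7 days. Sema3f had 61 and 40 UMIs, a ratio of 0.307 (0.201 to 0.465), and 0 at 7 days, where a count of 0 allows up to 131 CPM. Vegfc had 14 and 11 UMIs (0.368, 0.151 to 0.872). Vegfa had 5 and 42 UMIs (3.93, 1.56 to 12.7), while it was also higher in the whole 1-day library, and Angpt1 had 0 and 21 UMIs, for which no ratio is given. Of the genes with at least 20 UMIs in both libraries together and a count in control, 1 of 3 VEGF ligands was at least 2-fold higher and 1 lower at 1 day, 1 of 2 angiopoietins was lower, 0 of 2 endoglin ligands differed so far and 1 of 2 semaphorins was lower. Over all genes with at least 50 UMIs the shares past 2-fold were 8.63% higher and 2.05% lower, and lists of 2 or 3 genes are too short to be read against them. The median ratios of these 4 lists were 0.965, 0.946, 0.869 and 0.543, beside 1.00 over all genes compared.

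Other endothelial receptors and transcription factors stood at 1 day about where the 8 genes did. Of 12 other receptors 0 were past 2-fold at 1 day in either direction, near the shares over all genes (8.63% higher and 2.05% lower), and their median ratio was 0.734. Nrp2, a co-receptor related to Nrp1, had 225, 375 and 7 UMIs in endothelial cells (ratio 0.780, 0.659 to 0.924), Robo4, a guidance receptor of endothelium, 234, 337 and 2 (0.674, 0.569 to 0.800) and Calcrl, the adrenomedullin receptor, 212, 326 and 5 (0.719, 0.603 to 0.859). Of 12 transcription factors 0 were past 2-fold, again near these shares, with a median ratio of 0.806. Maf had 2194, 3202 and 58 UMIs (0.683, 0.646 to 0.721), Erg 302, 410 and 4 (0.635, 0.546 to 0.739) and Klf2, a factor induced by flow, 227, 406 and 9 (0.837, 0.710 to 0.989).

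Of 15 other junction genes compared, 1 was at least 2-fold higher and 1 lower at 1 day, with a median ratio of 0.868. Over all genes 8.63% were higher and 2.05% lower, so 1 of 15 is near the background. The adhesion molecule Mcam was the lower one, with 117 and 93 UMIs (0.372, 0.280 to 0.492), and Jup, the gene of plakoglobin, was the higher one, with 10 and 45 UMIs (2.11, 1.05 to 4.69). Esam had 372, 567 and 13 UMIs in endothelial cells (0.713, 0.625 to 0.815). Of the catenin genes, Ctnnb1 stood at 0.785 (0.681 to 0.907), Ctnna1 at 0.862 (0.739 to 1.01) and Ctnnd1 at 1.16 (0.906 to 1.49).

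At 7 days the same lists rest on the 22942 endothelial UMIs given above. Of 11 other receptors 4 were at least 2-fold higher and 1 lower, of 13 junction genes 2 higher and 3 lower, and of 12 transcription factors 1 higher and 2 lower, beside 18.6% of all genes in each direction. Among these genes the intervals that stay above 1 were those of the claudin Cldn5 (10 UMIs, 4.94, 2.29 to 9.53), Jam2 (11 UMIs, 3.28, 1.60 to 6.04), the endothelin receptor Ednrb (8 UMIs, 3.95, 1.66 to 8.14) and the sphingosine 1-phosphate receptor S1pr1 (7 UMIs, 3.42, 1.34 to 7.35). Those of Acvrl1, Tgfbr2, Sox18, Angpt2 and Tgfb1 hold 1, with 2 to 5 UMIs each, and so do those of Robo4 and Ctnnd1. Tjp1, Cd99l2, Sox7 and Gata4 had 0 UMIs. Of the genes with intervals above 1, Ednrb was also higher in the whole 7-day library, at 113 CPM (347 UMIs) against 25.6 in control (205 UMIs). Cldn5, Jam2 and S1pr1 were lower there than in control. The part of RNA from other cells in the endothelial value of Ednrb was not tested.

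Over 27 units of a class in a library with at least 20000 UMIs, the genes most like the 8 together were Btnl9 (Pearson r = 0.955 on log2(CPM + 10)), Bmp2 (0.950), Adam23 (0.937), Clec14a (0.936) and Fam167b (0.936). Units of a library share its depth and its free RNA, so r is a description without a test. Among the members, Kdr and Eng were most alike (0.95) and Pecam1 and Eng least (0.63). The genes nearest to each member were Gpr116 and Bmp2 for Kdr and for Eng, Clec14a and Tmem204 for Flt1, Adam23 and Btnl9 for Flt4, and Adam23 and Jam2 for Tek. The nearest gene to Cdh5 was Mrc1, the mannose receptor that Kupffer cells and sinusoidal endothelium both carry (0.872), followed by Tinagl1 (0.851), and the nearest to Nrp1 was the scavenger receptor gene Stab1 (0.898), followed by Ppap2b (0.881). For Pecam1 they were Btnl9 (0.860) and Tmem2 (0.846).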

How the data were processed

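Pools of 3 livers were profiled by Drop-seq in 3 libraries (control, 1 day and 7 days after IRE). The deposited values are raw counts: the authors aligned the reads with STAR 2.5.2a, per the submitters' processing notes, and per the file headers ran DigitalExpression to count UMIs of each gene in each barcode from sense-strand reads on coding and untranslated bases, merging identifiers at edit distance 1, without normalization. The notes name hg19, a human build, although the symbols are those of mouse, so no coordinates were taken from the files. The headers name a minimum of 200 genes, yet the files hold barcodes below it.

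Barcodes with at least 200 genes were kept. A cell was a hepatocyte when its 12 markers took at least 10% of its UMIs, and otherwise the class of 12 with the most distinct markers (at least 2, and 1 more than the next), or ungated. Older symbols were matched through RefSeq synonyms (5 genes), and Cr2 and Bmp10 were not matched. No doublet caller was run and doublets were kept. Levels are counts per 1000000 UMIs of the same cells (CPM), intervals are at 95%, and a count of 0 was taken to allow 3. Genes entered a count of 2-fold differences with at least 50 UMIs in both libraries together (20 for the pathway lists). Cells were thinned to 300 UMIs with seed 1. The ratio routine was tested on simulated data. Python 3.11.15, numpy 2.4.6, scipy 1.17.1 and matplotlib 3.10.9 were used.

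Named were all 8 members, per pathway list the 3 genes with most UMIs and any past 2-fold with at least 20 UMIs, and the 5 genes (2 for each member) of highest correlation among those with at least 100 UMIs. The members and lists were chosen with earlier results of these data known. Alternatives were every deposited barcode, at least 500 genes, at least 3 markers, at most 20% mitochondrial UMIs and other denominators. After the data had been seen, shared barcodes, cells with myeloid markers and cells other than sinusoidal ones were also left out.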

Additional observations from a re-analysis of the deposited data

Results flagged for a closer look

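At 1 day p.i., 6 of the 8 genes were below control in endothelial cells and above control in macrophages, with counting intervals on opposite sides of 1. Their ratios to control in macrophages were 6.71 for Kdr, 6.41 for Flt1, 5.54 for Flt4, 1.64 for Nrp1, 2.32 for Pecam1 and 1.78 for Cdh5, and that of the 8 genes together was 2.82, beside 0.793 in endothelial cells. With 1 library a condition the difference between the classes was not tested, and the 12 endothelial markers in the same macrophages were 4.98 times control. The share of all genes with such a pair of intervals was not counted.

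In all kept cells, every one of the 8 genes was above control at 1 day and below it at 7 days, in a comparison that shares the control library. The 7-day level divided by the 1-day level was 0.0698 for Kdr, 0.0838 for Flt1, 0.0685 for Flt4, 0.159 for Nrp1, 0.0705 for Tek, 0.0749 for Eng, 0.233 for Pecam1 and 0.117 for Cdh5, and 0.115 for the 8 together. This difference between time points was not tested either, and the share of all genes with this order was not counted.

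Barcodes under 200 genes, which enter none of the ratios above, held the 8 genes at 1 day above their control level. The ratios were 3.37 for Kdr, 2.47 for Flt1, 2.29 for Flt4, 2.56 for Nrp1, 3.40 for Tek, 4.65 for Eng, 2.77 for Pecam1 and 3.54 for Cdh5, and 2.91 for the 8 together, beside 3.47 for the 12 endothelial markers. What these barcodes are was not tested.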

How the results depend on the processing

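No paired analysis was possible because each condition has 1 library. The libraries also leave no replicate to leave out, and the intervals cover counting error only. The 8 genes together in all kept cells stood at 2.23 times control at 1 day. They stood at 2.33 times with every deposited barcode, 2.11 with at least 500 genes, 2.17 with at most 20% mitochondrial UMIs and 2.35 without mitochondrial genes and hepatocyte markers in the denominator. At 7 days, where the value was 0.255, the same settings gave 0.236, 0.374, 0.288 and 0.211. Per UMI of the 12 endothelial markers the direction was reversed at both times, to 0.706 and 1.76, because this denominator itself was 3.15 and 0.145 times control.

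In endothelial cells at 1 day the ratio of 0.793 was 0.756 with every barcode, 0.903 with at least 500 genes and 0.925 with at most 20% mitochondrial UMIs. At 7 days the ratio of 1.08 was 0.846 without mitochondrial genes and hepatocyte markers. Mitochondrial genes took 20.5% of the kept UMIs of the control library and 4.10% of those at 7 days. These UMIs are in the denominator of the 7-day CPM ratios above, that of Tek included. The part of this in the shifts was not tested. Endothelial cells were 13.4%, 34.3% and 0.521% of control, 1-day and 7-day cells with every barcode, and 10.9%, 30.8% and 1.16% with at least 500 genes. With at least 3 markers they were 13.4% and 35.0% in control and at 1 day, and with at most 20% mitochondrial UMIs 10.96% and 34.0%. Of 72 values of single genes in endothelial cells at 1 day, 66 kept their side of 1, and those that did not were of Eng, Tek and Pecam1. Of 64 at 7 days 56 did. Leaving out every cell with a myeloid marker gave no 7-day value, since 1 endothelial cell was left.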
